A study of Arabidopsis thaliana with 30 samples.

Results

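PLT2 is a transcription factor of the PLETHORA family, which keeps cells of the root meristem dividing and holds back their differentiation. A sieve element, the conducting cell of the phloem, normally leaves that state, stops dividing, breaks down its nucleus and matures. The genes described here are 105 of the 33602 genes counted in sorted cells of the sieve element lineage whose read share was higher when PLT2 was switched on in them. They were chosen by their values in those cells: a mean of at least 30 CPM (counts scaled to the library total) in the libraries with PLT2 induced, no overlap with the control libraries, and a mean difference in log2(CPM + 1) of at least 2. PLT2 itself and 7 other genes were left out by the rule. Of 6863 genes with the required level, 2554 (37.2%) did not overlap between the groups and 109 (1.59%) met the whole rule, 4 of which are among the genes left out.

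Seedlings of Arabidopsis thaliana were 5 days old, and 30 libraries formed 10 groups of 3. The sorted cells came from a cross of the reporter pCALS7::H2B-RFP with pNAC086(XVE)::PLT2-3YFP, in which estradiol switches on PLT2 from a promoter active in developing sieve elements. That line was given 10 µM estradiol for 6 h or DMSO, the solvent. Cells positive for both RFP and YFP were taken after estradiol and RFP positive cells after DMSO, so the gate and the treatment cannot be told apart. Whole root meristems made up the other sets: the mutant labelled pear sextuple, named for the PEAR transcription factors of the phloem, against the wild type Col-0, and Col-0 seedlings carrying pWOL(XVE)::ZAT14-TURQ or pWOL(XVE)::ZAT14-like-TURQ, induced in the vasculature with 5 µM estradiol for 10 h or 14 h or given DMSO. The labels do not describe the pear alleles, and estradiol was given to transgenic lines only, so its own effect cannot be told apart from that of the factor induced. Whether libraries of a group are separate cultures is not stated, so a p-value covers the spread among the libraries alone, and that spread may be technical. RNA of the sorted protoplasts was amplified before sequencing.

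PLT2 was at 20093, 70730 and 25923 CPM in the estradiol libraries and at 7.10, 4.93 and 8.41 CPM in the DMSO libraries. The transgene is counted as PLT2. Total counts ran from 31426740 to 44837397. The DMSO library numbered 2 stood apart, with 21340 genes detected against 27617 and 28426 in the other DMSO libraries and 29277 to 30143 with estradiol, and it was the lowest DMSO library for 67 of the 105 genes. Markers of sieve elements and the protophloem, 15 genes, summed to 5820 to 10490 CPM with estradiol and 10600 to 16920 CPM with DMSO. Companion cell markers were 2 genes: AHA3, a proton pump, averaged 356 CPM with estradiol and 914 CPM with DMSO, and SUC2, a sucrose transporter, 10.1 CPM with estradiol and 2.96 CPM with DMSO. Neither passed edgeR's test, and AHA3 passed in DESeq2. Root cap markers summed to 27.9 to 105 CPM with estradiol and 9.16 to 78.7 CPM with DMSO. Of the 16 lists of pathway and marker genes, 2 genes outside the 105 passed edgeR's quasi-likelihood test, both lower with estradiol, besides PLT2 itself. These were SEOR1, a phloem filament protein, at 93.1 ± 37.7 against 428 ± 87.1 CPM, and XCP2, a xylem protease, at 2.94 ± 0.886 against 10.1 ± 2.08 CPM (SD, n = 3 each, edgeR adjusted p = 0.0481 and 0.0486). DESeq2 called 20 such genes, and edgeR called 12 without the DMSO library numbered 1 and 0 without any other single library. Of the 15 sieve element and protophloem markers, 10 were lower and 1 higher at an unadjusted p under 0.05 in edgeR, and 8 lower and 1 higher in DESeq2. Shares of all genes at an unadjusted p or in DESeq2 are not given, so such counts of list genes, here and below, are descriptions. The part that cell makeup has in the differences described next was not tested.

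DNA replication starts from origins onto which the MCM2 to MCM7 proteins are loaded as a ring-shaped helicase, and E2F factors are known to switch on many genes of that phase of the cell cycle. All 6 MCM subunits were among the 105 genes. The 250 bases upstream of their annotated starts were read from the TAIR10.1 genome and searched on both strands for TTTCCCGC and TTTGGCGC, forms of the E2F site. A match was present for 5 of the 6, and these upstream stretches are shown 5′ to 3′ in the direction of the gene because they carry it, with the match in capitals.
MCM2, AT1G44900, chr1:16969964-16970213, plus strand: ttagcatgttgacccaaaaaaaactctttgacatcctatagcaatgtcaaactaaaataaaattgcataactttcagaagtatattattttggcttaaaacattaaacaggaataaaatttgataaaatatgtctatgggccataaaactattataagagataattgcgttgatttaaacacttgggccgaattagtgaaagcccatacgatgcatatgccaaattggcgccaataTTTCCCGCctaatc
MCM3, AT5G46280, chr5:18773707-18773956, minus strand: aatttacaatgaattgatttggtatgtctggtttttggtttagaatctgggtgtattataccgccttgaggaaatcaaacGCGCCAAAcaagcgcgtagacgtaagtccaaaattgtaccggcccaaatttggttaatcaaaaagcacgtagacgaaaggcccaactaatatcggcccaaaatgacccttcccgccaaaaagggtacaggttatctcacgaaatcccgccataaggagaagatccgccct
MCM4, AT2G16440, chr2:7130730-7130979, minus strand: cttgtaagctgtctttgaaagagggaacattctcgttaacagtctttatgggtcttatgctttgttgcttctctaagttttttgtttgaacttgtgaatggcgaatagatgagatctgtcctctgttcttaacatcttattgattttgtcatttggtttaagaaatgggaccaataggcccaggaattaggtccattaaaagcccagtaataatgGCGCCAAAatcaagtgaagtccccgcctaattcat
MCM5, AT2G07690, chr2:3527501-3527750, minus strand: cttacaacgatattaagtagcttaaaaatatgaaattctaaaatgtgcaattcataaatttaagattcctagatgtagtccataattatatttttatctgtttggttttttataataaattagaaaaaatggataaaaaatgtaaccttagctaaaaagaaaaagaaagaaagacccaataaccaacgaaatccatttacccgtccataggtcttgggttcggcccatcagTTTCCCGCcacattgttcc
MCM6, AT5G44635, chr5:18010668-18010917, minus strand: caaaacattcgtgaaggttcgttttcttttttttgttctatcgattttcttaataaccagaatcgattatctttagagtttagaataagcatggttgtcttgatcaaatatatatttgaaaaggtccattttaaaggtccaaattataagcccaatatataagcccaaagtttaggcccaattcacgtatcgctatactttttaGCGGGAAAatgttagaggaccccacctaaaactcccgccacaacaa
Counted from the annotated start, the match began at base -14 in MCM2, -19 in MCM5, -35 in MCM4, -46 in MCM6 and -170 in MCM3. The stretch of MCM7 (PRL) held neither form. Either form occurred in 9 of 103 member promoters (8.74%) and in 263 of 27443 promoters of protein-coding genes of the nuclear chromosomes (0.958%). The other 4 with a match were ATIM, a homologue of the replication fork protein TIMELESS, DML1, a DNA demethylase, NOXY38, which acts in mitochondrial distribution, and AT3G56320, annotated with a PAP/OAS1 substrate-binding domain. TGGGCC, the site II element, occurred in 22.3% of member promoters and 13.7% of all promoters, and in 5 of the 6 MCM promoters. AAACCCTA, the telo box, occurred in 5.83% and 4.49%. A loose core of the binding site of AINTEGUMENTA, a relative of PLT2, occurred in 0 of 103 member promoters and in 0.23% of all promoters, which says only that those letters are not in this window.

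The replication genes were higher in every estradiol library than in every DMSO library, as the rule requires. MCM5 was at 74.6, 167 and 104 CPM with estradiol and at 25.7, 11.6 and 18.8 CPM with DMSO. MCM2 was at 62.3, 125 and 74.2 CPM with estradiol and at 33.5, 11.1 and 13.1 CPM with DMSO, and MCM3 at 47.7, 118 and 56.7 against 16.1, 4.33 and 9.82 CPM. MCM4, MCM6 and MCM7 lay between 22.4 and 55.7 CPM with estradiol and between 1.65 and 17.9 CPM with DMSO. In all 6 the estradiol library numbered 2 was the highest. ATIM had 21.0, 49.3 and 27.2 CPM with estradiol against 4.45, 0.732 and 4.67 CPM with DMSO. E2F3, the E2F factor also known as E2FA, was at 48.6, 65.7 and 57.7 CPM with estradiol and 7.73, 4.61 and 9.50 CPM with DMSO. AT1G30680, the homologue of the organelle DNA helicase TWINKLE, had the largest log2 difference of the 14 genes of DNA replication, repair and chromosome structure, at 3.64. The smallest was 2.00, for the RecQ helicase RECQ4B.

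Of 6 other replication genes tested (PCNA1, PCNA2, CDT1A, CDC6, TSO2 and RNR1), 0 passed edgeR's test, 1 had an unadjusted p under 0.05 and 1 passed in DESeq2. Of 16 mitosis genes, 0 passed, 6 had an unadjusted p under 0.05 (5 higher and 1 lower) and 3 passed in DESeq2, 2 of them higher. Across all 24673 genes tested by edgeR, 64 were called higher (0.259%) and 98 lower (0.397%). The median log2 fold change of the mitosis list was 1.02 against 0.09 over all genes. CPM, which edgeR scales further by TMM factors, depend on the rest of the library, and the median of 19488 genes lay 0.50 log2 units above 0 with library totals and 0.04 with TMM.

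**Figure D1:**
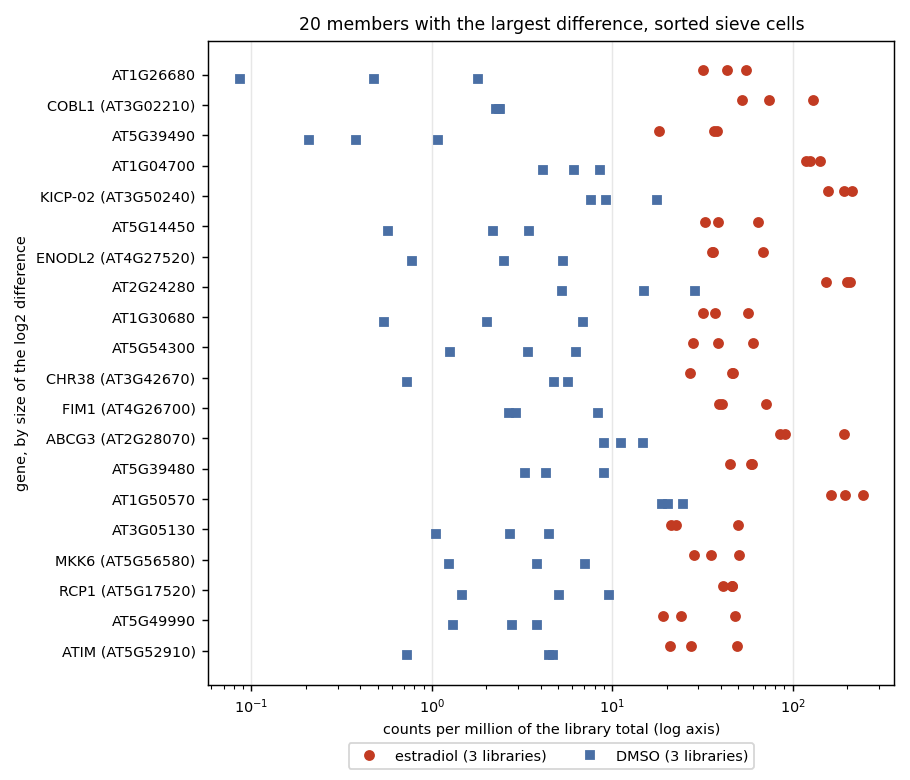
CPM of the 20 genes with the largest log2 difference, on a log axis, with circles for the 3 estradiol libraries and squares for the 3 DMSO libraries of the PLT2 line. The rule requires that circles and squares of a gene do not overlap. The gap is widest for COBL1, whose lowest estradiol value is 52.4 CPM and whose highest DMSO value is 2.39 CPM.

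The largest difference of the 105 belonged to AT1G26680, a gene of the plant-specific B3 family of DNA-binding factors. It had 43.3, 54.8 and 31.6 CPM with estradiol and 1.79, 0.477 and 0.0859 CPM with DMSO, a mean log2 difference of 4.71. Other regulators of transcription numbered 12. SPT, a basic helix-loop-helix factor of carpel and growth control, was at 25.4, 57.0 and 24.4 against 5.08, 2.77 and 5.41 CPM. AGL42, a MADS-box factor, was at 25.9, 51.7 and 44.1 against 4.94, 7.03 and 5.75 CPM. ARF6, an auxin response factor, SOL1, a CXC-domain protein, WRKY22, the telomere-repeat-binding-like factors TRFL1 and TRFL3, and AHL8, an AT-hook protein, had log2 differences between 2.05 and 2.95. SMXL5 (AT5G57130), known from phloem formation, was at 35.7, 90.8 and 38.9 against 12.4, 14.4 and 3.66 CPM. PEAR2 (AT5G02460), itself one of the Dof factors of the early phloem, was at 139, 321 and 177 CPM with estradiol against 51.5, 71.3 and 31.6 CPM with DMSO, at the edge of the rule with a log2 difference of 2.01.

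Genes of the cell surface and of signalling held several of the widest gaps. COBL1, a COBRA-like protein of the cell wall, was at 73.7, 130 and 52.4 CPM with estradiol and 2.35, 2.39 and 2.26 CPM with DMSO. ENODL2, an early nodulin-like arabinogalactan-type protein, was at 36.2, 68.7 and 35.8 against 5.31, 2.51 and 0.773 CPM. CSLD2, a cellulose synthase-like enzyme, and EXO, a growth-related cell wall protein, were near the threshold, with log2 differences of 2.01 and 2.12. XTH16, which remodels xyloglucan, had a log2 difference of 2.83. XTH16, EXO and the chitinase-family gene AT1G56680 were lowest, among the estradiol libraries, in the one numbered 2, where XTH16 had 18.9 CPM beside 71.0 and 66.6 CPM in the other estradiol libraries, and its highest DMSO value was 14.1 CPM. AT1G04700, annotated as a kinase with a PB1 domain, was at 118, 141 and 125 against 6.12, 4.14 and 8.56 CPM. AT1G50570, a calcium-dependent lipid-binding protein, was at 194, 246 and 163 against 24.7, 18.9 and 20.5 CPM. CRN (CORYNE), a protein of CLE peptide signalling, was at 33.5, 46.5 and 27.0 against 7.73, 5.70 and 9.02 CPM. The leucine-rich repeat receptor kinases AT1G34110 and AT2G45340 had log2 differences of 2.76 and 2.45.

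The cytoskeleton and the cell plate were represented by 6 genes. The kinesin KICP-02 had 158, 193 and 212 CPM with estradiol against 17.7, 7.64 and 9.24 CPM with DMSO. MKK6, a MAP kinase kinase of cytokinesis, had 28.5, 50.2 and 35.3 against 7.08, 1.24 and 3.84 CPM. MAP65-2, which bundles microtubules, FIM1, which bundles actin, the formin AT2G43800 and the myosin ATM2 had log2 differences between 2.29 and 3.27.

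Ribosome biogenesis and RNA processing formed the largest group, with 16 genes, and had smaller differences, between 2.01 and 2.85. RRP5 (AT3G11964), a factor of pre-rRNA cleavage, was at 44.6, 30.1 and 40.3 CPM with estradiol and 25.4, 1.11 and 10.3 CPM with DMSO, so its lowest estradiol value was 1.19 times its highest DMSO value. PWP2 and EMB2777, proteins of the small-subunit processome, were at 29.7 to 36.8 and 31.2 to 41.8 CPM with estradiol, against 2.07 to 15.7 and 1.81 to 17.8 CPM with DMSO. In all 3 the DMSO library numbered 2 was the lowest. Of 10 other ribosome biogenesis genes tested, such as fibrillarins and nucleolin, 0 passed edgeR, 2 had an unadjusted p under 0.05 and 0 passed in DESeq2. Those 10 genes summed to 544 to 1021 CPM with estradiol and 55.8 to 493 CPM with DMSO. Of the 3 translation genes, OVA9, a glutaminyl-tRNA synthetase, ILA, a HEAT-repeat protein of translation control, and ABO1, an Elongator subunit, had log2 differences of 2.10, 2.11 and 2.26.

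Metabolic genes included the most abundant of the 105. iPGAM2, a phosphoglycerate mutase of glycolysis, was at 744, 3835 and 1175 CPM with estradiol and 242, 285 and 237 CPM with DMSO. ISA3, a starch-debranching isoamylase, was at 1231, 870 and 1327 against 148, 292 and 204 CPM. GA3, the ent-kaurene oxidase of gibberellin synthesis, was at 81.8, 173 and 84.9 against 33.9, 8.15 and 7.96 CPM. The plastid genes ATCG00860 and ATCG01280 had identical counts in every library and count as 1 signal. GSTU26, a glutathione transferase, was the closest to overlap of all 105, at 59.5, 59.7 and 106 CPM with estradiol against 53.2, 8.18 and 4.75 CPM with DMSO.

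Over all 105, the log2 difference ran from 2.00 to 4.71 with a median of 2.40, against 0.31 for the 6863 genes of that level. With estradiol the 105 took 0.909%, 1.51% and 0.957% of the counts, and with DMSO 0.262%, 0.158% and 0.171%. The estradiol library numbered 2 was the highest for 80 genes. With TMM-scaled libraries the 105 kept a difference above 0, from 1.47 to 4.38 with a median of 1.90, but 40 genes met the whole rule. Without the DMSO library numbered 2 the rule gave 68 genes, without the DMSO library numbered 1 it gave 288, and without both libraries numbered 2 it gave 53, of which 47 are among the 105. Just inside that threshold were RECQ4B at 2.002, PEAR2 at 2.006 and CSLD2 at 2.007, and just outside ETG1, another replication gene, at 1.998, AT2G18900 at 1.994 and IBM1 at 1.994. Just inside the level of 30 CPM were HEI10 at 30.1, AT5G49990 at 30.4 and AT5G39490 at 30.9 CPM, and just outside NAC049 at 29.97 and AT4G39790 at 29.8 CPM. The 103 nuclear genes lay on all 5 chromosomes. Among the neighbours with no gene between them were AT1G78510 (SPS1) and AT1G78520, 323 bases apart, and the F-box genes AT5G39480 and AT5G39490, 2466 bases apart, which belong to 1 family, so that reads may be split between them.

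In whole meristems the same genes are read over all cell types, so fewer cells of a type and less RNA per cell cannot be told apart. In pear sextuple against Col-0 meristems, which the rule did not use, 101 of the 105 passed the filter on low values. The median level of those 101 was 18.4 FPKM in Col-0, against 12.4 FPKM over all genes tested. Of the 6 Dof genes taken as the targets of this mutant, PEAR1, PEAR2, DOF6 and OBP2 averaged 0.0802 to 1.06 FPKM in pear sextuple and 2.41 to 6.22 FPKM in Col-0. TMO6 averaged 78.6 FPKM in the mutant against 12.3 FPKM in Col-0, and HCA2 2.18 against 0.283 FPKM, both higher in the mutant. The target genes come from background knowledge and not from the labels, and a total transcript level does not check an allele that the labels do not describe. By limma, 41 were higher (all genes tested: 44.6%) and 24 lower (18.6%) in the mutant, 65 in all (63.2%), and 36 did not pass. The 24 include PEAR2, which passed the filter through its Col-0 values alone. The median log2 fold change of the 101 genes was 0.13, and that of all 17062 genes tested 0.21. With each library rescaled to the median ratio, 30 were higher and 37 lower, against 28.9% and 29.6% of all genes.

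None of the 6 MCM genes passed the test in the mutant. MCM2 averaged 26.0 FPKM in either genotype, and the 6 genes had log2 fold changes between -0.04 and 0.13, with limma adjusted p from 0.248 to 0.977. Of the 14 genes of the replication group 4 were called higher, against 44.6% of all genes tested, and 0 lower, against 3 and 1 once libraries were rescaled. DML1 was at 10.7, 11.2 and 11.0 FPKM in pear sextuple and 4.41, 2.78 and 4.47 FPKM in Col-0 (log2 fold change 1.31 ± 0.145 SE, limma adjusted p = 0.000118). It stayed apart from Col-0 in every library. CHR38, a chromatin remodeller, AT1G15940 and AT3G14890 had values of 0.59, 0.64 and 0.45. Of 6 listed replication genes outside the 105, RNR1, a ribonucleotide reductase subunit, was higher with a log2 fold change of 0.25, and the replication clamps PCNA1 and PCNA2 fell by 0.75 and 1.05 on the log2 scale.

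**Figure D2:**
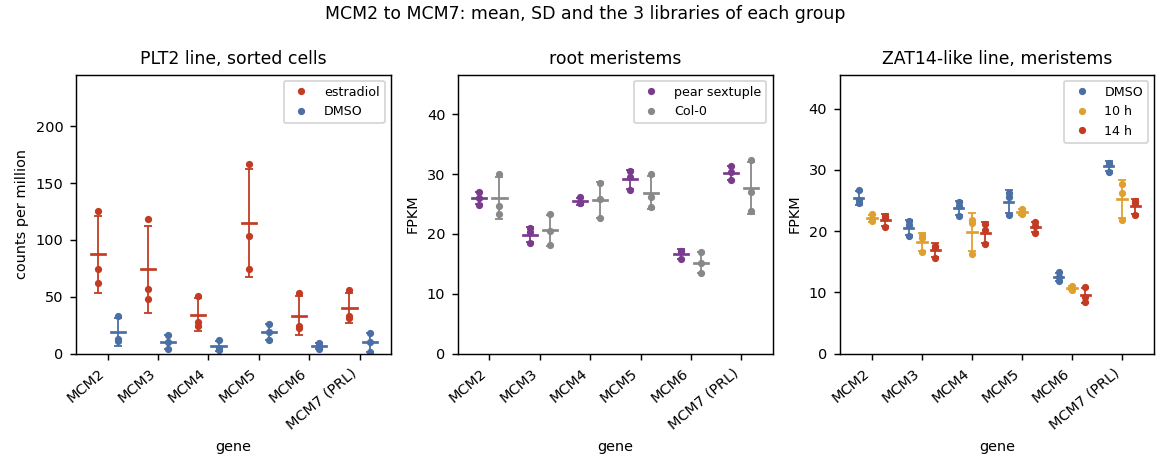
Levels of the 6 MCM genes with the mean, SD and 3 libraries of each group, in CPM for sorted cells of the PLT2 line (estradiol left, DMSO right) and in FPKM for pear sextuple and Col-0 meristems and for the ZAT14-like line over DMSO, 10 h and 14 h. The estradiol libraries lie above the DMSO libraries for every gene, the mutant and Col-0 overlap, and in the ZAT14-like line the 14 h means lie below DMSO.

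Regulators and receptors were mostly higher in the mutant. The counts in this paragraph stand beside 44.6% higher and 18.6% lower over all genes tested, and 28.9% and 29.6% after rescaling. Of 13 transcription regulators 9 were higher and 2, AGL42 and PEAR2, lower, which rescaling turned into 8 and 3. AT1G26680 was at 12.0, 17.1 and 15.9 FPKM in pear sextuple and at 3.39, 3.36 and 4.16 FPKM in Col-0 (log2 fold change 1.78 ± 0.137 SE, limma adjusted p = 2.15e-05). SMXL5 was at 5.50, 6.09 and 5.95 against 1.86, 1.56 and 1.81 FPKM (1.32 ± 0.0999), AHL8 at a mean of 28.0 against 11.7 FPKM (1.21) and SPT at 43.5 against 19.5 FPKM (1.13). The groups do not overlap for AT1G26680 or SMXL5. All 6 genes of receptors, kinases and lipid signalling were higher, of which 3 stayed called after rescaling and none was lower. CRN was at 5.58, 5.76 and 4.98 against 3.17, 2.20 and 3.61 FPKM, and AT1G34110 at 25.6, 24.0 and 28.2 against 14.0, 10.8 and 15.5 FPKM.

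The falls were deep in a few genes. AT3G15680, a zinc finger protein of the Ran-binding type, was at 1.95, 3.05 and 2.05 FPKM in pear sextuple and 33.0, 27.9 and 34.0 FPKM in Col-0 (log2 fold change -3.30 ± 0.138 SE, limma adjusted p = 1.77e-06). AGL42 was at 2.30, 2.33 and 4.20 against 19.2, 13.8 and 15.9 FPKM (-2.16). XTH16 was at 14.6, 10.1 and 10.0 against 53.9, 51.2 and 29.0 FPKM (-1.83), and the Col-0 library numbered 4 was the lowest of its group. iPGAM2 was at 29.9, 25.8 and 28.8 against 93.0, 81.3 and 86.2 FPKM (-1.59). PEAR2 was at 0.0802 ± 0.0847 FPKM in pear sextuple and 2.69 ± 0.211 FPKM in Col-0 (SD, n = 3 each), but it is one of the genes taken as targets of this mutant. Its Col-0 values alone carry it through the filter, so its call is a description only. The uncharacterised AT2G01913 and the plastid chaperone CR88 had log2 fold changes of -1.56 and -1.18.

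Of 16 genes of ribosome biogenesis and RNA 8 were lower and 1 higher in the mutant, and 12 and 0 after rescaling. The counts in this paragraph stand beside 18.6% lower and 44.6% higher over all genes tested, and 29.6% and 28.9% after rescaling. RRP5 was at 29.9, 27.7 and 30.4 FPKM in pear sextuple and 54.9, 41.7 and 50.7 FPKM in Col-0, and ATG2 (AT3G51800), the EBP1 homologue of growth control, at 188 ± 10.1 against 341 ± 24.6 FPKM (SD, n = 3 each). The 1 higher gene was CCR1 (GRP8), a glycine-rich RNA-binding protein, at a log2 fold change of 0.43. Of 10 listed ribosome biogenesis genes outside the 105, 9 were lower and 0 higher. Of 9 plastid and mitochondrial genes tested, 5 were lower and 1 higher, and 7 and 1 after rescaling. Metabolism and transport had 8 higher and 2 lower of 14, and 6 and 2 after rescaling. GA3 was at 81.3, 84.4 and 86.2 against 27.7, 28.4 and 33.5 FPKM, and ISA3 at 61.8, 60.3 and 61.9 against 27.1, 23.9 and 32.5 FPKM.

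The remaining groups were mixed, beside 44.6% higher and 18.6% lower over all genes tested (28.9% and 29.6% after rescaling). Cell wall and surface genes had 3 higher (COBL1, EXO and the GDSL-like lipase AT5G14450) and 2 lower (XTH16 and SKS1) of 9, and 3 and 3 after rescaling. Of 6 cytoskeleton genes KICP-02, FIM1 and ATM2 were higher and 0 lower, which became 3 and 2 with rescaled libraries. The highest fold change of all belonged to AT1G24440, a RING/U-box protein, at 10.9, 11.4 and 11.4 FPKM in pear sextuple and 1.94, 2.31 and 1.88 FPKM in Col-0 (2.01 ± 0.0932 SE). With single libraries left out, 59 to 66 of the 101 genes were called, and 52 of the 65 were called in every setting tried other than a limit on fold change, a log2 change of at least 1 in size, which left 17.

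**Figure D3:**
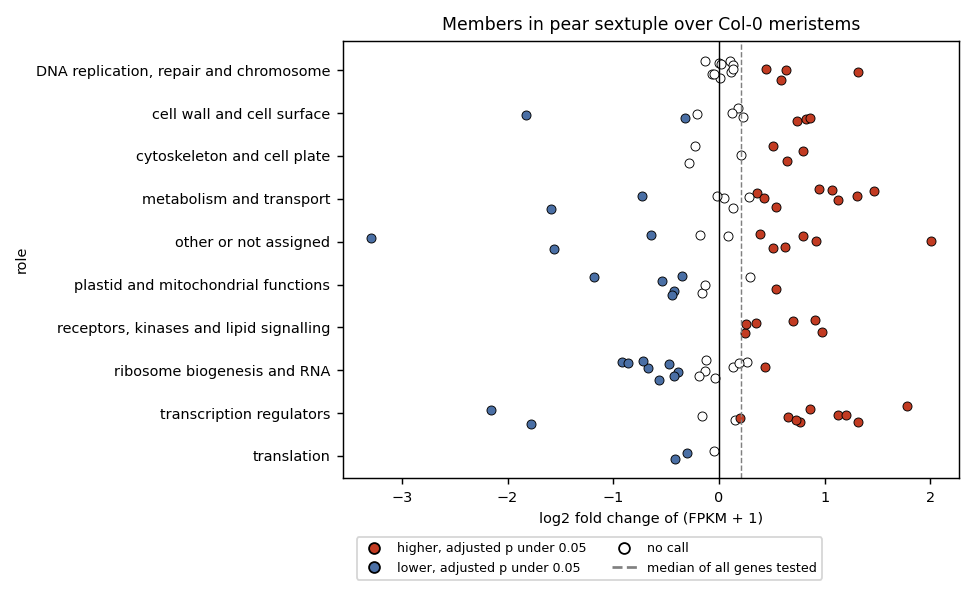
Log2 fold change of log2(FPKM + 1) in pear sextuple over Col-0 for the 101 genes tested, 1 point a gene in rows by role, filled where limma's adjusted p is under 0.05. The dashed line is the median of all genes tested, 0.21. Points of the receptor row are all on the right, and 8 of the 16 ribosome points are filled on the left. Of all genes tested, 44.6% were called higher and 18.6% lower.

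Both ZAT lines were induced with estradiol as well, and 100 of the 105 genes passed the filter there. In its own line ZAT14-like averaged 5.98 FPKM (DMSO), 54.9 FPKM (10 h) and 71.4 FPKM (14 h), and ZAT14 15.2, 45.4 and 68.2 FPKM in its own line over the same times. The 2 DMSO libraries and the ZAT14 10 h library that carry the number 2 deviated together from their groups, with correlations of 0.447 to 0.524. Over the mean of both times in the ZAT14-like line, 14 of the 100 genes were higher (all genes tested: 9.57%) and 30 lower (5.18%), 44 in all, with a median log2 fold change of -0.13 against 0.01 for all 17157 genes. This count depends on single libraries: it was 15 without DMSO replicate 1, 15 without DMSO replicate 2 and 27 without DMSO replicate 4. It was 22 without the 14 h replicate 3, and 13 without the libraries numbered 2. At 10 h alone 11 were higher (8.96%) and 24 lower (4.83%), and at 14 h 11 higher (7.89%) and 21 lower (4.49%). In all, the counts at 10 h were 22, 15 and 14 without the 10 h replicate 1 and the DMSO replicates 1 and 2. Those at 14 h were 17, 18 and 15 without the DMSO replicates 1 and 2 and the 14 h replicate 3. With the replicate number as a block, fewer genes were called at each time and over both, as given in the last section. Shares of all genes are not given for these settings, so a smaller count is not read as particular to the 105.

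In the ZAT14 line 4 genes were higher (2.27%) and 3 lower (1.01%) over both times, 7 in all (3.28%). At 10 h the counts were 6 higher (1.96%) and 1 lower (1.25%), 7 in all (3.21%), and at 14 h 8 higher (2.85%) and 4 lower (1.43%), 12 in all (4.28%). The count over both times was 4 without the DMSO replicate 1 or 4, and that at 10 h was 4 without the DMSO replicate 4. For the difference between the responses of the lines, ZAT14-like minus ZAT14, limma called 0 of 100 genes (all genes: 0.326% higher, 0.035% lower, 0.361% in all), with 23 at an unadjusted p under 0.05. A call in 1 line and not in the other is therefore not shown to differ between them.

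AT1G26680 again had the largest difference. In the ZAT14-like line it had 3.00, 2.53 and 2.70 FPKM (DMSO), 39.6, 23.4 and 22.9 FPKM (10 h), and 22.3, 21.2 and 19.3 FPKM (14 h). In the ZAT14 line it had 2.33, 2.89 and 2.66 FPKM (DMSO), 21.8, 15.8 and 15.9 FPKM (10 h), and 22.5, 19.7 and 21.2 FPKM (14 h). Every induced library of both lines lay above every DMSO library, and the log2 fold changes over both times were 2.74 ± 0.14 and 2.49 ± 0.14 (SE, limma adjusted p = 1.67e-09 and 2.07e-08). The higher level of this gene in the PLT2 line is required by the rule and is no support for these values. In pear sextuple against Col-0 meristems the gene was higher as well. The part of estradiol itself was not tested. AT1G04700 averaged 1.08 FPKM (DMSO), 3.19 FPKM (10 h) and 4.38 FPKM (14 h) in the ZAT14-like line, and 1.11, 2.03 and 2.77 FPKM in the ZAT14 line. EXO was at 13.1, 25.6 and 21.2 FPKM in the ZAT14-like line and 12.4, 26.2 and 24.1 FPKM in the ZAT14 line over the same times. AT1G50570 was at 8.90, 13.7 and 13.6 FPKM and at 8.57, 12.0 and 11.9 FPKM. These 4 genes passed at 10 h, at 14 h and over both times in both lines, and were called over both times in every setting tried other than the limit on fold change.

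AT5G39490, the F-box gene, was listed at 0 in all 6 DMSO libraries. It reached 1.04, 1.35 and 1.12 FPKM at 14 h in the ZAT14-like line (limma adjusted p = 2.23e-06). In the ZAT14 line it had 0.310, 0.301 and 0.259 FPKM at that time (limma adjusted p = 0.0648). The 3 ZAT14-like values at 14 h lie just above 1 FPKM and by themselves carry the gene through the filter. Its p-values are therefore no support for a difference. SMXL5 was lower in both lines: its means were 2.05 FPKM (DMSO), 0.927 FPKM (10 h) and 1.28 FPKM (14 h) in the ZAT14-like line, and 2.19, 1.35 and 1.21 FPKM in the ZAT14 line. Its log2 fold changes over both times were -0.53 ± 0.099 and -0.49 ± 0.099 (SE, limma adjusted p = 0.00197 and 0.0111).

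**Figure D4:**
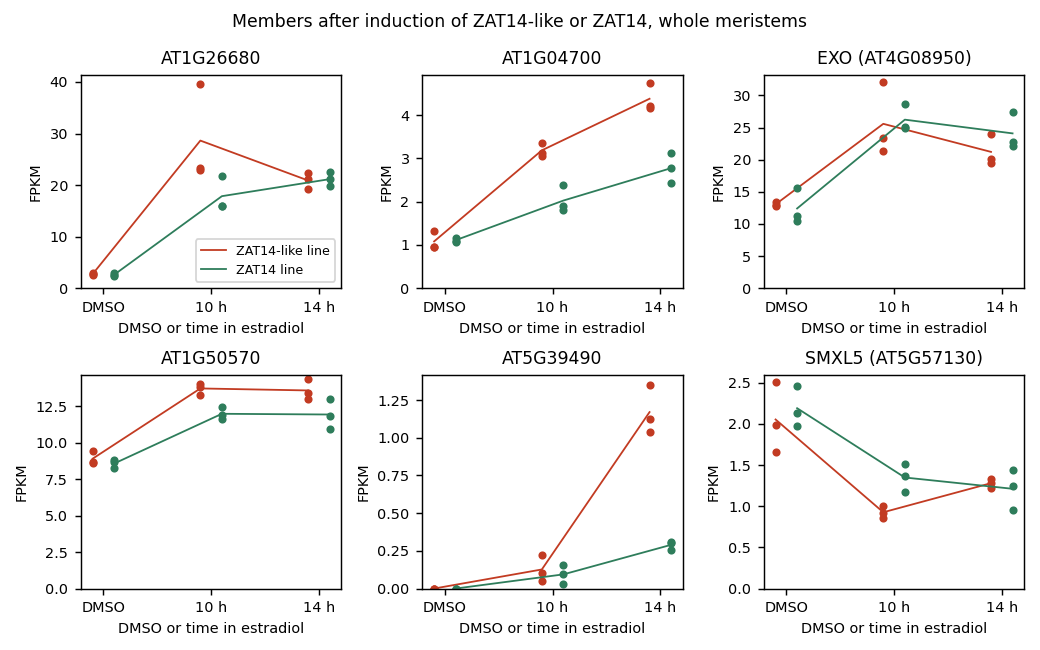
FPKM of 6 genes in the ZAT14-like and ZAT14 lines with DMSO and after 10 h and 14 h of induction, with points for the 3 libraries of a group and lines through the means. For AT1G26680, AT1G04700, EXO, AT1G50570 and AT5G39490 every induced point lies above the DMSO points of its line, and for SMXL5 every induced point lies below.

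Replication and ribosome genes made up much of the lower side in the ZAT14-like line. Of 14 replication and chromosome genes 7 were lower and 0 higher over both times (9 and 0 at an unadjusted p), and of 16 ribosome genes 8 were lower and 1 higher. Over all genes tested, 5.18% were lower and 9.57% higher. MCM7 had 31.0, 31.1 and 29.6 FPKM (DMSO), 21.8, 27.6 and 26.3 FPKM (10 h), and a mean of 24.1 at 14 h (log2 fold change -0.30 ± 0.0675 SE, limma adjusted p = 0.00763). MCM2, MCM3, MCM4 and MCM6 had log2 fold changes between -0.20 and -0.29 and passed, and MCM5 had -0.17 (limma adjusted p = 0.0524). MCM7 alone among the 6 was called in every setting tried other than the limit on fold change. RRP5 averaged 42.4 FPKM (DMSO), 30.8 FPKM (10 h) and 34.6 FPKM (14 h), and OVA9, ILA and ABO1 were all lower, by 0.21 to 0.31 on the log2 scale. Of these 3 translation genes 3 were called lower at 10 h and 0 at 14 h, and of the 16 ribosome genes 10 and 1. Of the 14 replication genes 3 were lower at 10 h and 7 at 14 h. Over all genes tested, 4.83% were lower at 10 h and 4.49% at 14 h. Over both times the calls of ILA and ABO1 were each lost in 16 settings and that of OVA9 in 8. The 8 lower ribosome calls were lost in 4 to 14 settings. In the ZAT14 line 0 of the 14 replication genes and 0 of the 16 ribosome genes were called, at either time or over both. Over both times 0 of either had an unadjusted p under 0.05. At that level 1 ribosome gene was lower at 10 h and 1 was higher at 14 h. Of listed genes outside the 105, 7 of 16 mitosis genes and 7 of 10 ribosome biogenesis genes were lower in the ZAT14-like line over both times, with 0 higher. The 2 lists differed by time. Mitosis genes had 0 lower at 10 h and 13 at 14 h, and ribosome biogenesis genes 8 and 1. The shares of all genes given above apply to them too.

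Cell surface genes had 2 higher (EXO and XTH16) and 3 lower (SKS1, COBL1 and AT5G14450) of 9, against 9.57% and 5.18% of all genes tested. SKS1, a SKU5-like protein, averaged 16.2 FPKM (DMSO), 12.4 FPKM (10 h) and 10.6 FPKM (14 h). The receptor kinase AT2G45340 was at 12.3, 10.1 and 7.75 FPKM and the amino acid transporter AT1G47670 at 19.3, 16.0 and 13.2 FPKM over the same times. TRFL1 was at 15.7, 20.2 and 18.4 FPKM. These 4 genes, with AT5G39490, SMXL5, MCM7 and the 4 called in both lines at both times, were the 11 called in every setting other than the limit on fold change, which left 2. AT5G39490 is among them through the same values that carry it through the filter, so its calls are a description only. In the ZAT14 line GSTU26 and the permease AT5G49990 were lower, with log2 fold changes of -0.38 and -0.34 over both times.

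**Figure D5:**
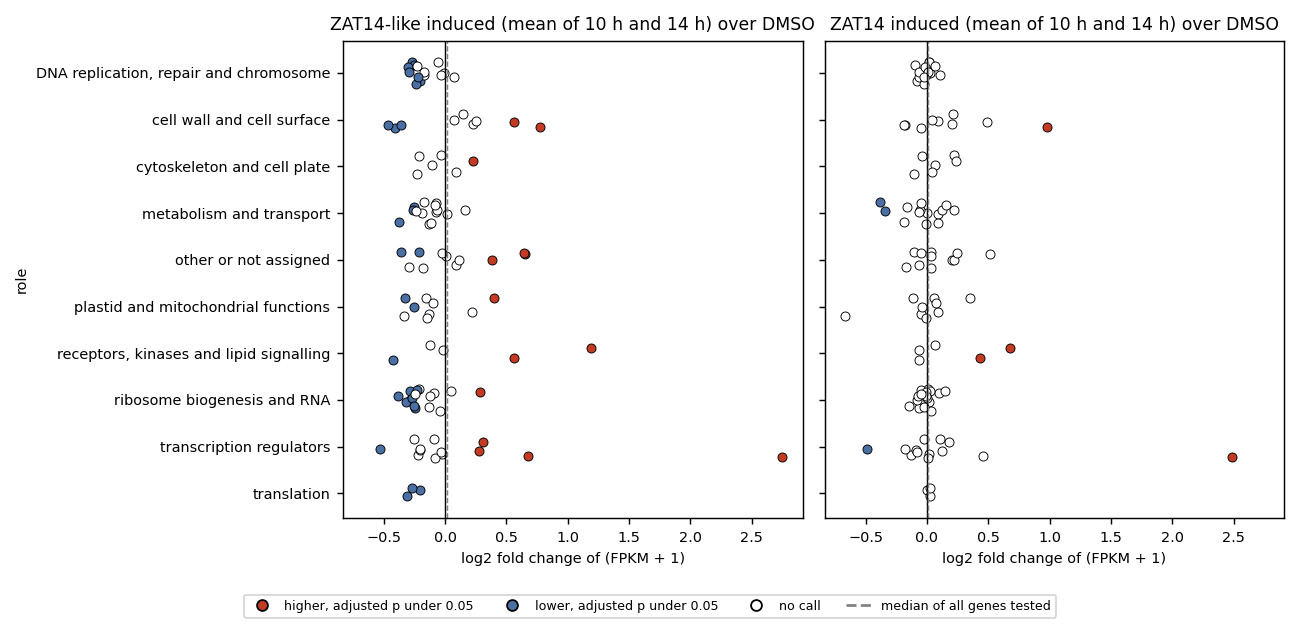
Log2 fold change of log2(FPKM + 1) over the mean of 10 h and 14 h against DMSO for the 100 genes tested, by role, with ZAT14-like on the left and ZAT14 on the right, filled where limma's adjusted p is under 0.05. The replication and ribosome rows hold 7 and 8 filled points below 0 on the left and 0 on the right. Of all genes tested, 5.18% were called lower with ZAT14-like and 1.01% with ZAT14.

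Set side by side, 13 genes were lower in both the pear sextuple mutant and the ZAT14-like line, 8 were higher in both, 8 were higher in the mutant and lower in the line, and 3 were lower in the mutant and higher in the line. Over all genes tested, 44.6% were higher and 18.6% lower in the mutant, and 9.57% and 5.18% in the line. The share of all genes in each combination was not computed, so these counts are not read as a shared response. Of the 44 calls in the line, 33 were lost in some setting. Among the 8 higher in both were AT1G26680, AT1G04700, EXO and AT1G50570. The 3 were XTH16, AGL42 and AT2G01913.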

How the data were processed

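The sorted-cell libraries were deposited as raw read counts per gene, and the meristem libraries as FPKM that the authors had computed. TopHat2, Bowtie2, HTSeq, featureCounts and the genome TAIR10 are named per the submitters' processing notes, without versions or roles. Counts were divided by the library total to give CPM, and the rule for the genes was applied to them. The members, their roles (assigned by hand) and the lists were chosen with earlier results of these data known. The rule for named genes took the 20 largest differences, the 10 highest estradiol means, the 3 genes on either side of each threshold (1 of them is not reported here), up to 10 called members per comparison by adjusted p, neighbouring members and called list genes. Other members named, as examples of a role, were chosen after their values were seen. FPKM were tested with limma 3.58.1 on log2(FPKM + 1), Benjamini-Hochberg adjusted over all genes that reached 1 FPKM in 3 libraries or more. This scale understates the change of low genes. Counts of genes outside the set were tested with edgeR 4.0.16 (quasi-likelihood, TMM), with DESeq2 1.42.0 as an alternative, in R 4.3.3. The fits were also run on simulated data with no outlying library, which does not show how they hold for the libraries used here. Depth is unknown for FPKM. Promoters were read from the TAIR10.1 genome. Alternatives that leave out libraries numbered 2 were chosen after seeing the data.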

Additional observations from a re-analysis of the deposited data

How the results depend on the processing

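The rule gave 105 genes with library totals, 40 with TMM, 41 with DESeq2 size factors, 55 with a pseudocount of 5 CPM and 53 without both libraries numbered 2, 47 of them shared. Leaving out single libraries gave 68 (DMSO 2) to 288 (DMSO 1). In pear sextuple, 65 calls became 17 when calls also needed a log2 fold change of 1 or more in size, and 59 to 66 without single libraries. AT5G04670, an Enhancer of polycomb-like factor, changed sign there under median-ratio rescaling, with a log2 fold change of -0.014. The cause was not tested.

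Calls in the ZAT14-like line at 10 h, at 14 h and over both times numbered 35, 32 and 44. They were 12, 16 and 13 without the libraries numbered 2, 9, 16 and 14 when that line was fitted alone, and 2, 3 and 2 with the same limit on fold change. Single libraries left out gave 14 to 39, 15 to 48 and 15 to 45. In the ZAT14 line 7, 12 and 7 calls became 4, 8 and 4 without the libraries numbered 2 and 2, 2 and 1 with that limit, and 4 to 10, 8 to 16 and 4 to 10 without single libraries. The difference between lines gave 0, and 1 with no filter on low values (AT5G39490). Listed genes outside the set gave 2 calls, 4 with no filter on low counts, 1 with DESeq2 size factors, 20 with DESeq2, and 0 to 12 without single libraries (12 without DMSO 1, 0 without any other).

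With the replicate number as a block, the replicate block gave 63 calls in pear sextuple, 26, 19 and 20 in the ZAT14-like line, 8, 9 and 6 in the ZAT14 line, 0 for the difference and 25 in the lists. Samples with the same number correlated in their deviations by 0.267 and 0.166 in the counts, 0.249 and 0.354 in pear, and -0.162 to 0.531 in the ZAT set. Between the 14 h groups of the 2 ZAT lines the values were 0.177, 0.107 and 0.212. These values do not settle whether the numbers pair the samples. The main fits leave the numbers out, and the block counts are given beside them.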
